A study of Mus musculus with 6 samples.

Results

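Heavy chain variable segments were followed in RNA-seq of germinal centre B cells from SFR KO and wildtype mice. They were the rows of the normalized count table annotated as functional antibody V genes with names starting in Ighv, without Ighv1-72, the segment known for its use against the hapten NP. This gave 112 segments of the 55421 genes in the table, and 91 of them averaged 10 normalized reads or more, the level required for testing. The SFR KO mice carry a deletion of the SLAM family receptor genes that spans Cd244, Ly9, Slamf7, Cd48, Slamf1, Cd84 and Slamf6, and the comparison asked how the RNA of their germinal centre B cells differs from that of wildtype cells. There were 3 SFR KO and 3 wildtype libraries. Both groups were C57BL/6 mice that carried a GFP reporter. All were immunized with ovalbumin carrying NP at a ratio of 18, in alum, and GFP-positive spleen cells were sorted on day 9. Neither the ages of the mice nor whether each library came from a separate mouse is stated, and p-values therefore reflect the spread between libraries, which may be technical.

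The variable domain of an antibody heavy chain is encoded by 1 V, 1 D and 1 J segment that are joined in the genome of each B cell, so that a B cell and its descendants carry the same V segment. A germinal centre grows from few founder cells, whose clones expand and mutate their V segments. In bulk RNA the level of a V segment therefore adds up the cells that carry it and the RNA each of them makes, and fewer cells of a clone and less RNA per cell cannot be told apart here. V segments are grouped into families by sequence likeness, numbered before the hyphen of the name. Of the 16 families found, Ighv1, the large family also called J558, held 52 segments, Ighv5 held 10, Ighv2 (also called Q52) and Ighv8 held 9 each, and Ighv4, Ighv12, Ighv13, Ighv15 and Ighv16 held 1 each.

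The libraries held between 28269310 and 33053024 reads assigned to genes, and the normalized values could be turned back into whole reads. The 7 deleted genes summed to between 5.47 and 16.8 normalized reads in the SFR KO libraries and between 10457 and 20669 in the wildtype libraries, as their labels say. Germinal centre B cell markers, among them Bcl6, a transcription factor that germinal centre B cells need, were high in every library, with sums of 104989 to 134798 normalized reads over 7 genes in SFR KO and 125716 to 136382 in wildtype. Lists of other cells were also present. Summed over 10 T cell genes the level was 4715 to 7016 normalized reads in SFR KO and 4298 to 4605 in wildtype, over 7 genes of resting B cells 10100 to 17715 in SFR KO and 14617 to 18471 in wildtype, and over 7 plasma cell genes 36117 to 36787 in SFR KO and 32617 to 33780 in wildtype. Lists of 7 myeloid and 5 red cell genes overlapped between the groups, and wildtype 1 was the highest library in each. Myeloid genes summed to 2425, 816 and 1053 normalized reads in SFR KO and 5021, 1348 and 1097 in wildtype. Red cell genes summed to 4184, 1538 and 2926 in SFR KO and 7686, 1602 and 1418 in wildtype. No gene of these lists was at 0 in all libraries. In the limma test described below 0 genes of the 6 lists were called, while unadjusted p-values under 0.05 were found for 3 of 7 germinal centre, 3 of 6 plasma cell, 3 of 7 resting B cell and 6 of 10 T cell genes tested, beside 16.1% of all tested genes. Log2 differences were above 0 for 4 of the 7 germinal centre, 4 of the 6 plasma cell, 1 of the 7 resting B cell and 9 of the 10 T cell genes. With edgeR 0 were called. DESeq2, which called 4.53% of all its genes, called 1 of each of these 4 lists, Gcsam, Jchain, Cd38 and Lck, all higher in SFR KO.

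The segments that the results turn on can look much alike. The pairs shown are Ighv9-1, the segment that passed the test, beside Ighv9-3, the highest segment of its family; Ighv2-2 and Ighv2-5, which led the lower values of the Ighv2 family; and Ighv1-26 and Ighv1-80, which were among the highest Ighv1 segments. Sequences are the annotated V transcripts of GENCODE release M21 (GRCm38, chromosome 12, minus strand), and the first 300 bases from the start codon are printed. Capitals mark the bases that differ within a pair.
Ighv9-1: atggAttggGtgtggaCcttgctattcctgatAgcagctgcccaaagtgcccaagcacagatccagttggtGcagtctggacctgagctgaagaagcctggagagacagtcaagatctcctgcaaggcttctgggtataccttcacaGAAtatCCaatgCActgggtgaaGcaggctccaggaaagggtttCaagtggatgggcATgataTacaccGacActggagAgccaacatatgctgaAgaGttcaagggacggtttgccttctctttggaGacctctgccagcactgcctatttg
Ighv9-3: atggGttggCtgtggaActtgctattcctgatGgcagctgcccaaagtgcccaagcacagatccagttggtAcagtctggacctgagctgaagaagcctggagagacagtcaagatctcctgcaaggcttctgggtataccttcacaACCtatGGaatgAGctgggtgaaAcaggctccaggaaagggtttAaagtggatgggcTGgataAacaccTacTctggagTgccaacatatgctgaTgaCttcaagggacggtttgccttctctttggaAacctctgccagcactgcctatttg
Ighv2-2: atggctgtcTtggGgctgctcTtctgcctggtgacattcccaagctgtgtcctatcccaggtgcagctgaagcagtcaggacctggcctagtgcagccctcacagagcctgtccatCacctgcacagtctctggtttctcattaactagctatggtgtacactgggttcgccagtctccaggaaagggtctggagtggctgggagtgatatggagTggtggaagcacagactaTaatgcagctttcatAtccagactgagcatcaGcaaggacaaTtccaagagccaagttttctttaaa
Ighv2-5: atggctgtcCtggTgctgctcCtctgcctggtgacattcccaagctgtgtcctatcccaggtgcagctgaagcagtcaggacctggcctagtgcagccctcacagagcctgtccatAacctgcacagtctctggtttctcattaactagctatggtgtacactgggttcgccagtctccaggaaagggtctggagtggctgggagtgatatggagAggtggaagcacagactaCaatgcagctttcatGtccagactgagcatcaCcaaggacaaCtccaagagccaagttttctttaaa
Ighv1-26: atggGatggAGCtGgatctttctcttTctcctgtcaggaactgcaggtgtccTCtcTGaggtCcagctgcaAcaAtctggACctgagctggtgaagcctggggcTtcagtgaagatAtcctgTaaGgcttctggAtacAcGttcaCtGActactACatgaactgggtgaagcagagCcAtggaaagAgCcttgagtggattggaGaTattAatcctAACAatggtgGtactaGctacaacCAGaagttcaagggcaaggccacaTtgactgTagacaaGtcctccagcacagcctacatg
Ighv1-80: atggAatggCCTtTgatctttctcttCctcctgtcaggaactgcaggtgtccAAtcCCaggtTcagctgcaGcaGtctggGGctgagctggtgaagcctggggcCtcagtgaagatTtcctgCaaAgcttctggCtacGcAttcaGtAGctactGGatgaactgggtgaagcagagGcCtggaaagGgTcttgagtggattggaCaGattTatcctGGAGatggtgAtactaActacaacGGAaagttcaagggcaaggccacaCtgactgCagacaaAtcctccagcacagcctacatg

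Ighv9-1 and Ighv9-3 were identical at 327 of 351 aligned bases (93.2%), Ighv2-2 and Ighv2-5 at 340 of 352 (96.6%), and Ighv1-26 and Ighv1-80 at 300 of 351 (85.5%). Of the differing bases 23, 9 and 46 lie in the stretches shown. Ighv9-1 lies at chr12:114093928-114094358, Ighv9-3 at chr12:114140692-114141122, Ighv2-2 at chr12:113588267-113588702 and Ighv2-5 at chr12:113685482-113686045. Ighv1-26 lies at chr12:114788372-114788805 and Ighv1-80 at chr12:115912344-115912776. Each is a gene of a leader exon and a V exon. Of the 112 segments, 92 had at least 1 stretch of 50 bases that another heavy chain V gene or pseudogene of the table also holds, and in 14 such stretches made up at least 50% of the transcript. For Ighv9-1 the shared part was 29.8%, for Ighv9-3 23.2%, for Ighv2-2 55.4% and for Ighv2-5 29.9%. It was 49% for Ighv1-26 and 18.5% for Ighv1-80, which share 0 such stretches with each other. Ighv2-2 and Ighv2-5 share 95 such stretches with each other, and Ighv9-1 and Ighv9-3 share 47. Reads from shared stretches cannot be given to 1 segment with certainty, so the level of each segment is uncertain to that extent. The highest overlap was that of Ighv1-71, with 97.4% of its 50-base stretches held elsewhere. Only Ighv1-62-1 overlapped another annotated gene, Gm19331, on the opposite strand.

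The first question was how much heavy chain V RNA each library held and how it was spread over the segments. Summed over all 112 segments, the level was 21009, 25953 and 28701 normalized reads in the SFR KO libraries and 23936, 24764 and 24750 in the wildtype libraries. The means were 25221 ± 3898 in SFR KO and 24483 ± 474.2 in wildtype (SD, n = 3 each), a ratio of 1.03. The SFR KO libraries lay on both sides of the wildtype libraries, and the difference of 737.96 was smaller than the spread between SFR KO libraries. In reads per library, these segments held 21321, 23706 and 30645 in SFR KO and 25763, 24143 and 24367 in wildtype.

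Between 100 and 106 segments had a read in each SFR KO library and between 100 and 104 in each wildtype library. Over all libraries 95 segments were seen in every library, 14 in some, and 3 (Ighv1-16, Ighv1-24 and Ighv7-2) had no read. The 21 segments below the level for testing together held 0.251% of the V reads. Just above this level were Ighv2-6-8 and Ighv1-37, with means of 11.3 and 12.7 normalized reads, and just below it were Ighv2-4 and Ighv8-6, with 8.58 and 7.67.

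Evenness was measured as the Shannon entropy of the segments' shares divided by its highest possible value, so that 1 would mean equal use of all 109 segments with a read in any library. It was 0.839, 0.856 and 0.845 in SFR KO and 0.833, 0.863 and 0.853 in wildtype libraries. The groups overlapped, with means of 0.846 ± 0.0088 in SFR KO and 0.85 ± 0.0154 in wildtype (SD, n = 3 each), and the difference of -0.0032 was smaller than either SD. In terms of the number of equally used segments that would give the same entropy, the libraries stood at 51.2, 55.5 and 52.6 in SFR KO and 49.8, 57.4 and 54.7 in wildtype. With each library thinned to 21321 V segment reads, the number in the smallest library, the evenness ranged from 0.839 to 0.856 in SFR KO and from 0.833 to 0.863 in wildtype. For comparison, the 100 kappa light chain V segments had an evenness of 0.853 to 0.882 in SFR KO and 0.848 to 0.865 in wildtype. Those groups overlapped as well.

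Among the 112 segments no 1 segment ruled a library. Ighv1-72, which is left out of these shares, had 3144, 624 and 708 normalized reads in SFR KO and 2980, 3121 and 1691 in wildtype. That was above each of the 112 segments in SFR KO 1 and in every wildtype library. Of the 112, the segment with the largest share was Ighv1-80 with 7.52% of their reads in SFR KO 1, Ighv1-9 with 5.27% in SFR KO 2 and Ighv6-6 with 7.84% in SFR KO 3. It was Ighv14-3 with 6.85% in wildtype 1, Ighv9-3 with 6.15% in wildtype 2 and Ighv1-80 with 5.62% in wildtype 3. The 95% Wilson interval of the largest of these shares, that of Ighv6-6 in SFR KO 3, was 7.55% to 8.15%, which like all such intervals here covers counting error only. The 5 leading segments of a library together held 24.1% to 26.8% in SFR KO and 21.9% to 26.7% in wildtype. In all, 22 segments were among the 10 leading segments of at least 1 library, and Ighv9-3 was the only 1 among them in every library.

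The segments that led 1 library were often far lower in another of the same group. Ighv6-6 had 351.8, 391.9 and 2251.5 normalized reads in the SFR KO libraries and 560.2, 1036 and 566.8 in the wildtype libraries. SFR KO 3 was high and the other SFR KO libraries lay below all wildtype libraries, with a log2 difference of -0.03 ± 0.60 (SE). That difference was above 0 with edgeR and DESeq2. Ighv14-3 had 648.4, 215.7 and 547.9 normalized reads in SFR KO and 1640.7, 1092.4 and 688.7 in wildtype. All SFR KO values lay below all wildtype values, but the difference of -1.33 ± 0.41 missed the threshold (limma adjusted p = 0.164). Ighv1-80 had 1579.5, 1265.6 and 1003.1 normalized reads in SFR KO and 390.2, 580.6 and 1390.5 in wildtype, so that wildtype 3 lay among the SFR KO libraries and the other wildtype libraries below them (0.89 ± 0.38, adjusted p = 0.293).

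**Figure D1:**
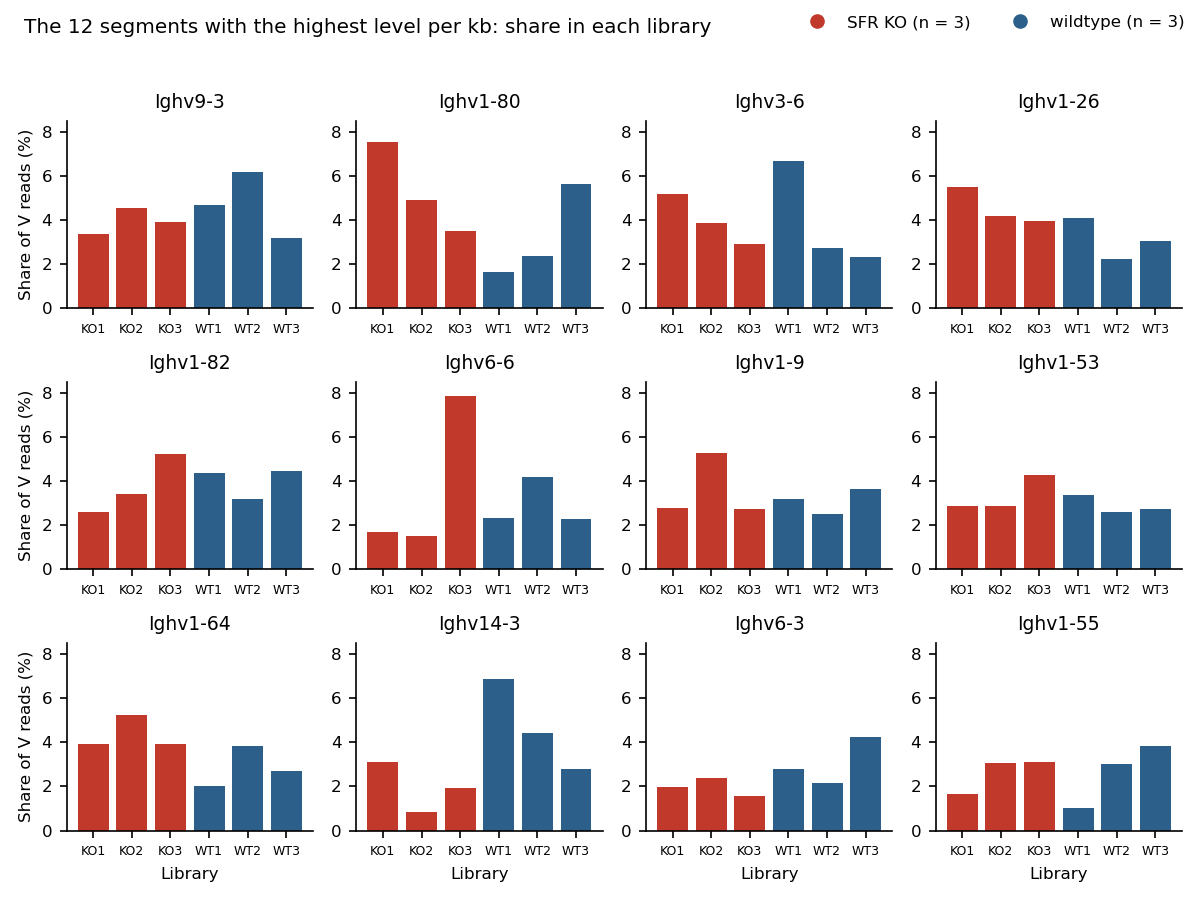
Share of heavy chain V reads (%) in each SFR KO and wildtype library for the 12 segments with the highest mean level per kb of exon; each bar is 1 library. The leading segment changes from library to library: Ighv6-6 reaches 7.84% in SFR KO 3 and 1.51% in SFR KO 2, and Ighv14-3 6.85% in wildtype 1 and 2.78% in wildtype 3.

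Levels of different segments were compared per kb of annotated exon, which ranged from 294 to 480 bases. The highest were Ighv9-3 with a mean of 3053 normalized reads per kb over all libraries, Ighv1-80 with 2948, Ighv3-6 with 2752, Ighv1-26 with 2685 and Ighv1-82 with 2533. Ighv6-6, Ighv1-9, Ighv1-53, Ighv1-64, Ighv14-3, Ighv6-3 and Ighv1-55 followed, with 2408 down to 1598. None of these 12 passed the test between genotypes. In normalized reads the highest, Ighv9-3, had 707.5, 1179.1 and 1118.3 in SFR KO and 1118.6, 1522.2 and 783.1 in wildtype, with overlapping groups (log2 difference -0.17 ± 0.24 SE, limma adjusted p = 0.786).

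The spread between libraries of 1 group was large for these segments. The residual standard deviation in the fit of each gene, on the log2 scale, had a median of 0.74 over the 91 tested segments and of 0.13 over all 13562 tested genes. Over the 2432 other genes of like level, with means between 58.1 and 331.7 normalized reads, the median was 0.21, and over 96 tested kappa V segments it was 0.62. Of the 91 segments, 89 lay above the upper quartile of all tested genes (0.29). Between the highest and the lowest of the 6 libraries the median segment differed 4.03-fold. Taking libraries in pairs, the share of V reads that would have to be moved between segments to make a pair equal (the Bray-Curtis dissimilarity) was 0.23 to 0.27 within SFR KO, 0.26 to 0.29 within wildtype and 0.22 to 0.31 between the groups. The 9 pairs from different groups thus covered the range of the 3 pairs within each group. Their median was higher, at 0.281, against 0.23 within SFR KO and 0.263 within wildtype.

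**Figure D2:**
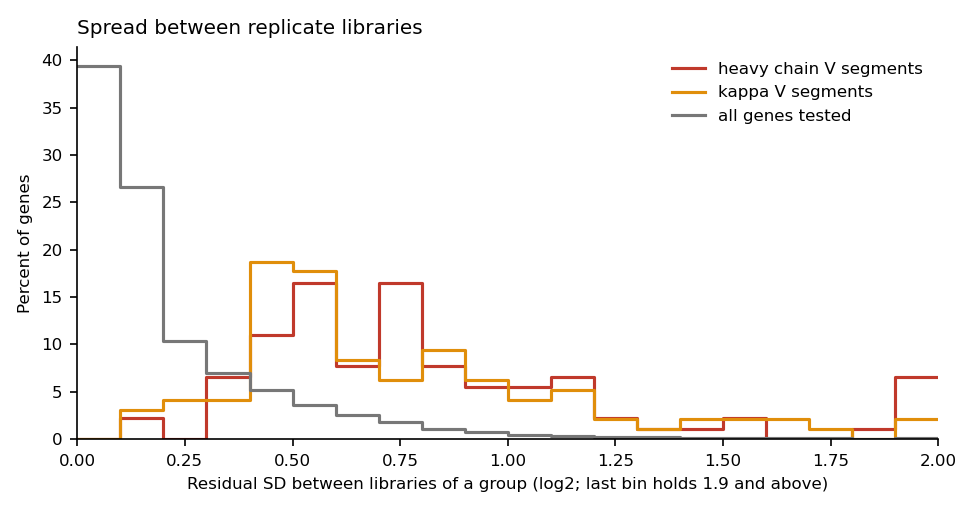
Percent of genes (y axis) in bins of the residual standard deviation between libraries of a group, on the log2 scale (x axis), for tested heavy chain V segments, tested kappa V segments and all tested genes. The heavy chain segments have a median of 0.74 and kappa segments of 0.62, against 0.13 for all tested genes.

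The second question was which segments differed between the genotypes. Each gene was tested with limma on log2(normalized count + 1), and a gene was called when its p, adjusted by Benjamini-Hochberg over 13562 genes, was under 0.05. Of the 91 tested segments, 1 was called lower in SFR KO (0.31% of all tested genes were) and 0 were called higher (0.155%), while calls in either direction made up 0.465% of all tested genes. At an unadjusted p under 0.05, 17 segments (18.7%) passed, 9 lower and 8 higher, beside 16.1% of all tested genes. The groups did not overlap for 10 segments (11%), beside 21.7% of all tested genes. Of these segments 6 were lower in SFR KO (11.9% of all tested genes were) and 4 were higher (9.78%). The median log2 difference over the 91 segments was 0.19 and over all tested genes -0.003. The sign of the segments' median turned when wildtype 1 was left out (-0.06). Disregarding sign, the median difference was 0.53 over the segments and 0.12 over all tested genes. On the recovered reads edgeR called 1 of 91 segments (0.221% of all tested genes) and DESeq2 called 5 of 72 (4.53%). By the authors' deposited table, 5 of 64 segments had an adjusted p under 0.05 (4.8% of its genes).

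Ighv9-1, a segment of a family of 4, had 79.8, 116 and 94.6 normalized reads in the SFR KO libraries and 339.1, 233.9 and 409.3 in the wildtype libraries. Every SFR KO library lay below every wildtype library. The means were 96.8 ± 18.2 in SFR KO and 327.4 ± 88.3 in wildtype (SD, n = 3 each), with a log2 difference of -1.73 ± 0.22 (SE; limma adjusted p = 0.0194, edgeR 0.0229). The call was lost when SFR KO 2 (adjusted p = 0.053), SFR KO 3 (0.0548), wildtype 1 (0.108) or wildtype 3 (0.0926) was left out, and the log2 difference then ran from -1.86 to -1.55. The authors' deposited table gives it a log2 fold change of -1.76 and an adjusted p of 1.09e-11. Its share of V reads was 0.33% to 0.447% in SFR KO and 0.944% to 1.65% in wildtype. The other members of the family did not pass. Ighv9-2, which shares more 50-base stretches with Ighv9-1 than any other segment does (18.9%), had 78.8, 81 and 63.7 normalized reads in SFR KO and 32.5, 94.4 and 65 in wildtype (0.34 ± 0.35, adjusted p = 0.696). Ighv9-4 had a log2 difference of 0.75 ± 0.36 (adjusted p = 0.354). The difference of Ighv9-1 therefore stood against values above 0 for both of these segments and -0.17 for Ighv9-3.

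The Ighv2 family had a lower share of the V reads in SFR KO libraries. It held 2.63%, 3.34% and 2.82% in SFR KO and 7.32%, 7.6% and 5.23% in wildtype. The highest SFR KO library lay below the lowest wildtype library, and their 95% Wilson intervals were 3.12% to 3.57% for SFR KO 2 and 4.96% to 5.51% for wildtype 3. The mean share was 2.93% ± 0.368 in SFR KO and 6.72% ± 1.3 in wildtype (SD, n = 3 each), a difference of -3.79 ± 0.778 percentage points (SE) and a ratio of 0.436. No test was made of this or of any other family share, since a family's share is a score over its segments. Families were set by the segment names, while the segments followed here were chosen with earlier results of these data known. Reading the sum of the Ighv2 family as normalized reads, the libraries held 551.8, 866 and 808.3 in SFR KO and 1753.2, 1882.2 and 1294 in wildtype. Of the lists of other cells, those of plasma cells and of T cells were higher in every SFR KO library than in every wildtype library, at the sums given above. Each of these sums was led by 1 gene. Without Jchain the plasma cell list overlapped, with 10157 to 11328 normalized reads in SFR KO and 10403 to 10605 in wildtype. Its genes went both ways, with log2 differences above 0 for 4 of the 6 tested and below 0 for 2. Sdc1, a surface marker of plasma cells, averaged 28.3 ± 1.12 in SFR KO and 43.4 ± 6.5 in wildtype (SD, n = 3 each, limma adjusted p = 0.302). Prdm1, also on the list, averaged 281.2 ± 46.3 in SFR KO and 212.1 ± 47.2 in wildtype (limma adjusted p = 0.308). Lck, a kinase gene, made up most of the T cell list, with 3919.7 to 6155.1 normalized reads in SFR KO and 3797.1 to 3926.7 in wildtype. Which cells made the Lck RNA was not tested. Without Lck the T cell list overlapped as well, with 795.2 to 1018.2 in SFR KO and 371.7 to 808.3 in wildtype. The resting B cell list overlapped, with 17714.6, 10099.5 and 10180.5 normalized reads in SFR KO and 18470.8, 18346 and 14617 in wildtype. SFR KO 2 and SFR KO 3 thus lay below every wildtype library and SFR KO 1 did not. Of its 7 genes 6 had log2 differences below 0 and 1 above. The part of these cells in the share was not tested.

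Within the Ighv2 family lower levels were counted for several segments. Of these, Ighv2-2 and Ighv2-5 share 95 stretches of 50 bases, so their levels may not be separate. Ighv2-2 had 169.5, 263.8 and 251.9 normalized reads in SFR KO and 985.7, 468.8 and 506.8 in wildtype (log2 difference -1.46 ± 0.27 SE, limma adjusted p = 0.0555). Ighv2-5 had 88.7, 108.4 and 57.1 in SFR KO and 144.9, 256.4 and 355.5 in wildtype (-1.52 ± 0.33, adjusted p = 0.0844). Ighv2-3 had 35.5, 166.4 and 144.2 in SFR KO and 178.4, 405.2 and 226.5 in wildtype (-1.41 ± 0.53, adjusted p = 0.238). For these 3 of the 7 tested Ighv2 segments every SFR KO library lay below every wildtype library, as for 11.9% of all tested genes. None of the 3 passed the limma threshold. DESeq2 called Ighv2-2 and Ighv2-5 (adjusted p = 0.00735 and 7.17e-05), as did the authors' deposited table (0.0068 and 2.37e-05). For Ighv2-2 limma's adjusted p ran from 0.0203 with sample weights to 0.205 without SFR KO 2, with a log2 difference of -1.65 to -1.12.

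Not every Ighv2 segment followed. Ighv2-9-1 had 185.2, 119.3 and 123.6 normalized reads in SFR KO and 349.3, 468.8 and 105.6 in wildtype, so that wildtype 3 was the lowest of all. Ighv2-6 had 21.7, 144.5 and 91.8 in SFR KO and 29.7, 70.8 and 25.4 in wildtype, a log2 difference of 0.80 ± 0.64 (adjusted p = 0.592). Ighv2-9 and Ighv2-6-8 stood at -0.26 ± 0.63 and 0.26 ± 0.67, and Ighv2-4 and Ighv2-7 were below the level for testing. With any 1 of the 9 segments left out, the ratio of the family's mean share stayed between 0.398 and 0.494, and the SFR KO libraries stayed below the wildtype libraries. With Ighv2-2 left out, the ranges were 1.83% to 2.34% in SFR KO and 3.25% to 5.82% in wildtype.

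**Figure D3:**
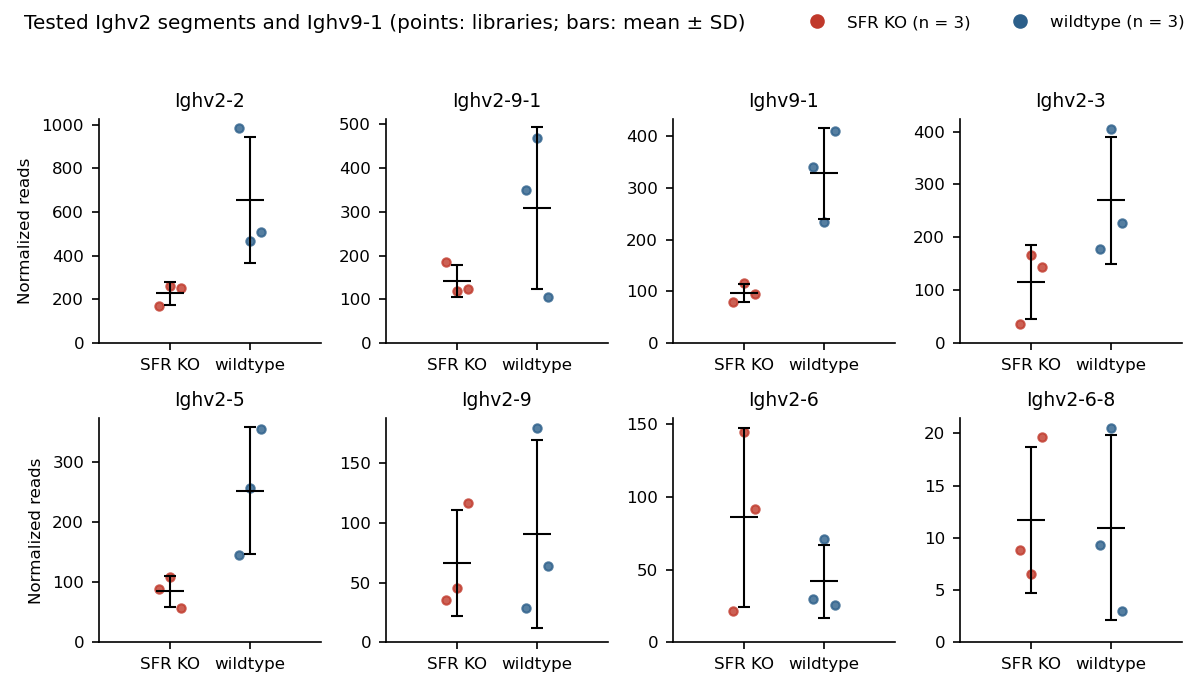
Normalized reads of the 7 tested Ighv2 segments and of Ighv9-1 in SFR KO and wildtype libraries; points are libraries and bars the mean ± SD (n = 3 each), with a scale of its own in each panel. For Ighv2-2, Ighv2-5, Ighv2-3 and Ighv9-1 the groups do not overlap, while for Ighv2-9-1, Ighv2-9, Ighv2-6 and Ighv2-6-8 they do. Of all tested genes 11.9% were lower in SFR KO without overlap.

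Of the other families, only Ighv15, with its single segment Ighv15-2, had groups that did not overlap. Groups thus did not overlap for 2 of the 16 families, while they did not for 21.7% of all tested genes. Its share was 0.0328%, 0.0759% and 0.0881% in SFR KO and 0.144%, 0.294% and 0.123% in wildtype. Ighv15-2 itself had 6.9, 19.7 and 25.3 normalized reads in SFR KO and 34.4, 72.8 and 30.5 in wildtype (-1.42 ± 0.51, adjusted p = 0.223). The Ighv1 family held 59.8%, 57.9% and 57.5% of V reads in SFR KO and 46.4%, 46.9% and 60.7% in wildtype. Wildtype 3 was thus above all SFR KO libraries and the other wildtype libraries below them, and the difference of 7.11 ± 4.73 percentage points (SE) was smaller than the wildtype SD of 8.11. Without wildtype 3 the difference was 11.8 points. Ighv9 held 4.86% ± 0.653 in SFR KO and 6.4% ± 1.18 in wildtype, and their groups overlapped. Ighv5 held 7.75% ± 1.37 in SFR KO and 8.83% ± 2.06 in wildtype, and Ighv14 5.9% ± 1.46 in SFR KO and 6.96% ± 1.83 in wildtype. Ighv3, Ighv6, Ighv7, Ighv8 and Ighv10 differed by between -0.361 and 0.67 percentage points, in each case less than the smaller SD of its groups.

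**Figure D4:**
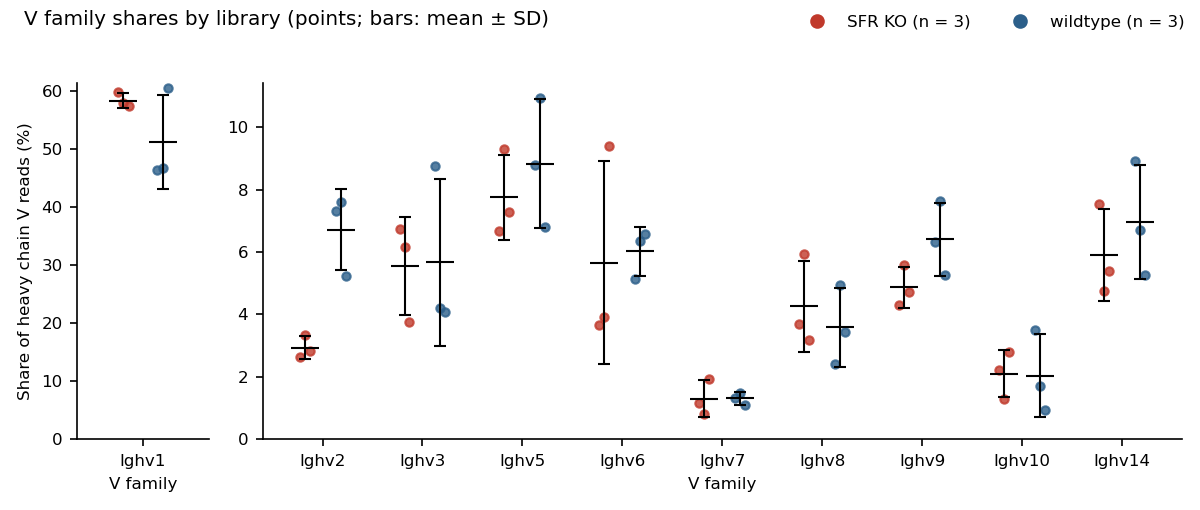
Share of heavy chain V reads (%) of each V family with a mean share of at least 1%, in SFR KO and wildtype libraries; points are libraries, bars the mean ± SD (n = 3 each), and Ighv1 has a scale of its own. Ighv2 is the only family drawn whose groups do not overlap, at 2.63% to 3.34% in SFR KO and 5.23% to 7.6% in wildtype. Of all 16 families 2 did not overlap, beside 21.7% of all tested genes.

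Higher values in SFR KO were led by segments of several families, and none passed the limma threshold. Ighv1-26 had 1150.9, 1088.2 and 1137.9 normalized reads in SFR KO and 980.2, 545.7 and 752.6 in wildtype (log2 difference 0.61 ± 0.17 SE, limma adjusted p = 0.144). The SFR KO values lay within a narrow range above all wildtype values. DESeq2 called it (adjusted p = 0.0111), as did the authors' deposited table (0.00693). Ighv5-9, which the authors' deposited table and DESeq2 also called (0.0215 and 0.0346), had 157.7, 183.9 and 266.9 normalized reads in SFR KO and 118, 128.2 and 40.6 in wildtype (1.21 ± 0.40, limma adjusted p = 0.199). Ighv14-2 was the only other segment above all wildtype libraries in every SFR KO library without meeting the naming rule, with 695.7, 397.4 and 357.8 normalized reads in SFR KO and 183, 302.6 and 325 in wildtype (0.82 ± 0.27, limma adjusted p = 0.202). These and the further Ighv2 and Ighv9 segments were named after their values were seen.

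Among segments averaging 200 normalized reads or more the highest log2 differences were those of Ighv1-15 (1.33 ± 0.51), Ighv1-85 (1.25 ± 0.37), Ighv1-80 (0.89 ± 0.38) and Ighv1-74 (0.82 ± 0.59). Ighv1-85 had 211.9, 189.4 and 530.1 normalized reads in SFR KO and 166.3, 91.3 and 101.6 in wildtype, without overlap (adjusted p = 0.156). For Ighv1-15 the SFR KO 3 library was high, at 1208.2 beside 444.4 and 325.2 normalized reads in SFR KO 1 and 2. Its wildtype values were 118.9, 407.2 and 224.5. Ighv1-74 had 371.5, 456.5 and 400.9 in SFR KO and 74.3, 263.6 and 625.7 in wildtype, so that the wildtype libraries lay on both sides. The lowest differences at this level were those of Ighv9-1, Ighv2-2, Ighv14-3 and Ighv1-75. Ighv1-75 had 187.2, 390.8 and 212.6 in SFR KO and 621.5, 366.2 and 710 in wildtype, where SFR KO 2 overlapped wildtype 2 (-1.12 ± 0.30, adjusted p = 0.128).

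In the remaining families the highest segments were Ighv3-6, Ighv4-1, Ighv5-17, Ighv7-3, Ighv8-8, Ighv10-1, Ighv11-2, Ighv12-3, Ighv13-2 and Ighv16-1. Of the 9 of these that were tested, log2 differences ran from -0.68 ± 0.41 for Ighv5-17 to 0.85 ± 0.70 for Ighv13-2, with limma adjusted p-values from 0.454 to 0.995. Ighv12-3 was nearly level in wildtype, at 34.4, 34.9 and 34.5 normalized reads, and stood at 38.4, 32.8 and 95.5 in SFR KO. Ighv16-1 had 3 reads, all in SFR KO 2.

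The segments were then placed along the locus. They lie on the minus strand of chromosome 12 between positions 113578504 and 116000461 (GRCm38), with the D segments at 113430528 to 113525329 and the J segments at 113428514 to 113429833. The Ighv2 and Ighv5 segments lie nearest to the D and J segments, and Ighv1 and Ighv8 segments fill the far part. Cut into 4 equal stretches, the nearest stretch held 22.9%, 24.4% and 22.4% of V reads in SFR KO and 33.5%, 35.1% and 24% in wildtype. SFR KO 2 lay just above wildtype 3, so the groups overlapped. Without the 9 Ighv2 segments this stretch held 20.3% ± 0.776 in SFR KO and 24.1% ± 4.7 in wildtype (SD, n = 3 each), again with overlap. The Ighv5 segments, which lie among the Ighv2 segments, held 6.67%, 9.29% and 7.28% in SFR KO and 8.78%, 10.9% and 6.8% in wildtype. The next stretch held 30% to 35.7% in SFR KO and 27.1% to 33% in wildtype, the third 15.3% to 18.9% in SFR KO and 13.8% to 20.4% in wildtype, and the farthest 24.5% to 26.6% in SFR KO and 19.8% to 28.5% in wildtype. The groups overlapped in each.

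**Figure D5:**
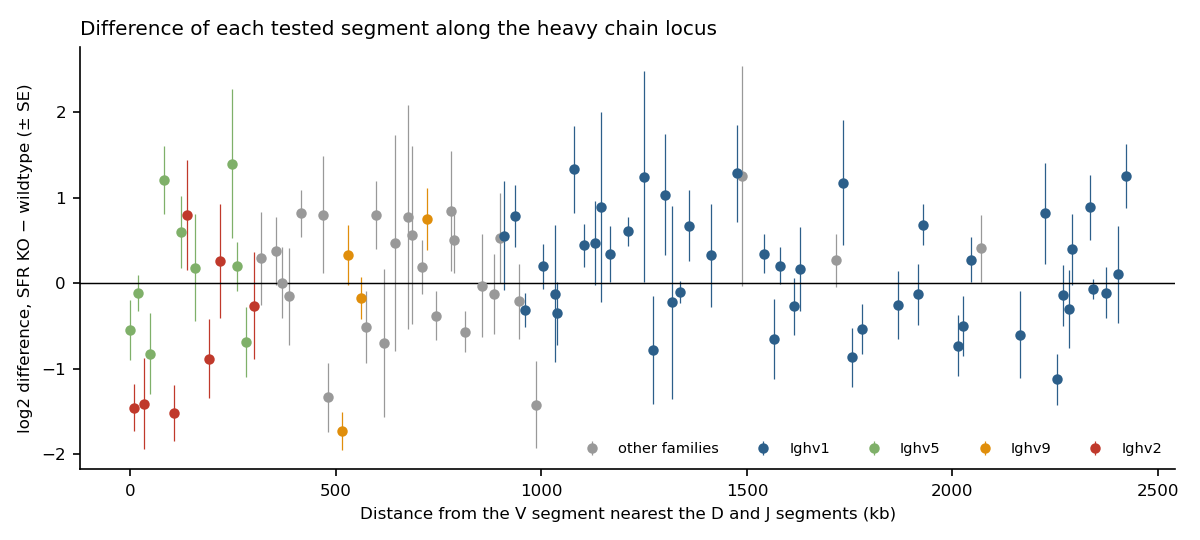
log2 difference of each tested segment, SFR KO minus wildtype, with its standard error (y axis) against its distance in kb from the V segment nearest the D and J segments (x axis), coloured by family. Ighv2-2, Ighv2-3 and Ighv2-5 lie below -1.4 at the near end among Ighv5 segments on both sides of 0.

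Other parts of the heavy chain locus were set beside the V segments. The 4 J segments summed to 390.2, 500.3 and 460.8 normalized reads in SFR KO and 375.3, 439 and 394.1 in wildtype, with Ighj4 highest in every library. All 4 were tested, and 0 were called by limma or edgeR, with no unadjusted p under 0.05. The 70 heavy chain V pseudogenes summed to 161.7 ± 28.8 in SFR KO and 222.4 ± 82.1 in wildtype. Of these 7 were tested, and 0 were called by limma or edgeR, with no unadjusted p under 0.05. Of 17 D segments 2 were tested, with the same outcome. Among 96 tested kappa V segments limma and edgeR called 0, while 27 (28.1%) had an unadjusted p under 0.05 with limma, beside 16.1% of all tested genes. For 12 kappa segments (12.5%, beside 9.78% of all tested genes) every SFR KO library was above every wildtype library, and for 3 (3.12%, beside 11.9%) it was below. DESeq2 called 5 of 78 kappa segments, all higher in SFR KO, beside 4.53% of all its genes.

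The genes that transcribe, recombine or accompany the heavy chain were described from a list of 23. Of these 21 were tested, and limma and edgeR called 0 in either direction, with 8 differences above 0 and 13 below (median -0.05). With limma 5 (23.8%) had an unadjusted p under 0.05, 2 higher and 3 lower in SFR KO, beside 16.1% of all tested genes. DESeq2 called 1 of 19, Jchain, which encodes the chain that joins antibody units, higher in SFR KO, beside 4.53% of all its genes. The largest differences were those of Rag1, a recombinase gene, and Hnrnpll, a regulator of antibody splicing. Rag1 had 6.9, 10.9 and 7.49 normalized reads in SFR KO and 24.2, 13.3 and 16.3 in wildtype (-0.99 ± 0.41 SE, limma adjusted p = 0.281), and Hnrnpll stood at 0.30 ± 0.39 (adjusted p = 0.765). Rag2, the partner of Rag1, had no read in any library.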

How the data were processed

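RNA-seq of 6 libraries was analysed, 3 SFR KO and 3 wildtype, grouped by the genotype in the labels and numbered in accession order. The submitters' processing notes name the build GRCm38 with STAR (2.5), featureCounts (1.5) and DESeq2 (1.14.1). How strand and reads that match several segments were handled is not given in the sources used. Hypermutated reads and reads shared between segments may be lost or misplaced at that step. The authors deposited read counts normalized to library size (a signal) with their mean, and, from their own comparison, log2 fold changes (KO over wildtype), standard errors and test statistics (scores), p-values and adjusted p-values. All values were whole multiples of each library's smallest value within a tolerance of 1e-06, which gave the reads.

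The main test was limma 3.58.1 (R 4.3.3; eBayes with a trend) on log2(normalized count + 1) over the 13562 genes averaging 10 normalized reads or more, two-sided. A fold change on this scale understates the change of low genes. Sums, shares, evenness and dissimilarities were given without a test. Positions, exon lengths and sequences came from GENCODE release M21, which held all 112 segments. Alternatives were pseudocounts of 0.5 and 5, other filters and scalings, edgeR 4.0.16, DESeq2 1.42.0, sample weights, a robust prior, GC correction and each library left out. The fit was also run on simulated counts drawn with the same small spread for every gene. That run does not cover genes that vary as much between libraries as the V segments do, and no result here rests on it. Named segments were the 12 highest per kb, the called ones, the leader of each library and family, and the 4 highest and 4 lowest differences among those averaging 200 normalized reads or more. A gene of the germinal centre list is not reported here. Segments and lists were chosen with earlier results of these data known.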

Additional observations from a re-analysis of the deposited data

How the results depend on the processing

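The call of Ighv9-1 was kept under every alternative that changed a pseudocount, filter, scaling, prior, weight, GC trend or tool, and lost without SFR KO 2, SFR KO 3, wildtype 1 or wildtype 3. The number of segments called lower, 1 in the main test, was 3 with DESeq2 (Ighv9-1, Ighv2-2 and Ighv2-5), 3 with no filter on the mean, 4 with sample weights and 0 to 3 with a library left out. The number called higher, 0 in the main test, was 2 with DESeq2 (Ighv1-26 and Ighv5-9), 1 with sample weights (Ighv14-4) and 0 to 3 with a library left out, the 3 being Ighv1-31, Ighv1-42 and Ighv14-4 without SFR KO 1; the cause was not tested. Under other scalings the median log2 difference of all genes stayed between -0.0035 and 0.0043. The log2 difference of the summed level, 0.03, stayed between -0.07 and 0.16, that of the Ighv2 share between -4.54 and -3.29 points, and that of evenness between -0.0116 and 0.005. As an inverse Simpson index per segment, which has another scale, the evenness difference was -0.0216. With Ighv1-72 included, the Ighv2 share was 2.28% to 3.26% in SFR KO and 4.89% to 6.75% in wildtype.

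Some of the named uncalled segments changed sign, among them Ighv10-1, whose log2 difference in the main test was 0.53. Ighv1-82 stood at 0.0022 with edgeR, Ighv6-6 at 0.48 with edgeR and 0.47 with DESeq2, and Ighv4-1 at -0.00705 after GC correction and -0.17 with sample weights. With a library left out the log2 differences ran from -0.0842 to 0.43 for Ighv1-53, -0.42 to 0.59 for Ighv1-55, -0.48 to 0.25 for Ighv1-82, -0.14 to 0.47 for Ighv1-9 and -0.018 to 1.18 for Ighv10-1. They ran from -0.0958 to 0.65 for Ighv3-6, -0.43 to 0.36 for Ighv4-1, -0.89 to 0.44 for Ighv6-6, -0.0022 to 0.63 for Ighv8-8 and -0.42 to 0.062 for Ighv9-3. No paired analysis was possible because the labels give no replicate numbers shared between the groups. With 21321 to 30645 V segment reads per library, low segments rest on few reads, and intervals cover counting error only.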
